A study of Rattus norvegicus with 18 samples.

Results

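Serotonin receptors were followed in rat dorsal root ganglia, the clusters of sensory neuron cell bodies beside the spinal cord, through 5 genes: Htr3a, Htr3b, Htr1d, Htr2a and Htr7. They were taken by gene symbol from a table of 25678 genes, and all 5 were among the 17043 genes with enough reads to be tested. The tissue was sequenced in 18 libraries, 3 in each of 6 groups. Ctrl are control libraries labelled without a treatment, and Ctrl_solvent are control libraries labelled solvent. Sham_solvent and Sham_herb carry the state Sham and were labelled solvent or herb. NPP_solvent and NPP_herb carry the state NPP and were labelled solvent or herb. The series concerns a rat model of neuropathic pain and the herbal mixture Shentong Zhuyu decoction. The sources used here do not give how the model was made, the solvent, the dose, the day of sampling, or the strain, age and sex of the rats. Whether the 3 libraries in a group are separate rats is likewise not stated, so each p-value measures the spread between libraries, which may be partly technical.

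Serotonin is released in injured or inflamed tissue by platelets and mast cells and reaches the endings of sensory neurons. Receptors of the 5-HT3 type are cation channels of several subunits. Htr3a encodes a subunit that forms channels alone, and Htr3b encodes one that needs Htr3a. The other receptor genes here encode G protein-coupled receptors: Htr1d couples to inhibitory Gi proteins and is a target of the triptan drugs, Htr2a couples to Gq and phospholipase C, and Htr7 couples to Gs and adenylyl cyclase. Sensory neurons use these receptors in pain, itch and the control of transmitter release.

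Upstream sequence is shown for Htr1d, the receptor with the smallest p in any comparison, and for Htr3b, whose level followed most closely the gene length slope of the library described below. Each stretch is the 250 bases before the annotated gene start from RefSeq on GRCr8, a later assembly than the mRatBN7.2 of the count table. Promoter entries were found for 3 of the 5 genes (Htr1d, Htr3b and Htr7). Capitals mark GGGCGG, the GC box bound by Sp1-type factors, or its reverse complement.
Htr1d (chr5:153939485-153939734, plus strand): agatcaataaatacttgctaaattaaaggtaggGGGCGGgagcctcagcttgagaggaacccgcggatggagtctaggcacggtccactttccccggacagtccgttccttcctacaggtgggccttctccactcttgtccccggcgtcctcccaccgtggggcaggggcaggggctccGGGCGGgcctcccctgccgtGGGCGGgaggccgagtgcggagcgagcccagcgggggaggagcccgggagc
Htr3b (chr8:58204940-58205189, minus strand): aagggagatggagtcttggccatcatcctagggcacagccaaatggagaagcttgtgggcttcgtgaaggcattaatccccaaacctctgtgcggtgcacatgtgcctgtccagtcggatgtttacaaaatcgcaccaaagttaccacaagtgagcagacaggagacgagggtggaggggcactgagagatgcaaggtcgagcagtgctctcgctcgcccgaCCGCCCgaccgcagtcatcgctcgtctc

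The Htr1d stretch holds 3 GC boxes and is 66.8% G and C, and the Htr3b stretch holds 1 and is 56.8% G and C. The median over 33469 promoters of the same length was 51.2%, and 30.5% of these promoters held the GC box on either strand. Neither stretch holds TGACG (in 18.2% of promoters on either strand), the core of cAMP response elements, or TATAAA (in 12.9%). TAATTA, the core bound by homeodomain factors, was also without a match in both (in 4.86% of promoters). These counts describe letters in the windows and say nothing of binding.

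Libraries held 18170925 to 50289652 reads assigned to genes. Markers of sensory neurons were high in all groups, with a mean over libraries of 989 FPKM for Prph, which encodes peripherin, and 211 FPKM for Avil (advillin). FPKM are reads scaled to gene length and library size, so they allow genes to be compared. Of 10 markers of the spinal cord and brain, 9 were in the table and 4 could be tested, and together they summed to 7.22 to 15.6 FPKM in single libraries. Mnx1 and Chat of motor neurons had 0.0056 and 0.011 FPKM, and Olig1 and Mog of oligodendrocytes 0.0061 and 0.037 FPKM. Mag and Gfap, which peripheral glia also express, had 5.85 and 4.21 FPKM. Gfap had a log2 fold change of 1.03 in Ctrl_solvent against Ctrl and of -1.17 in Sham_solvent against Ctrl_solvent (edgeR unadjusted p 0.0310 and 0.0164), and none of the 4 passed. One library difference bears on Ctrl: Eif2s3y, a Y-linked gene, had over 100 reads in 16 of 18 libraries, and in Ctrl replicates 2 and 3 it had 1 and 0 reads. The Ctrl group therefore mixes libraries that differ in Y-linked expression, and log2 fold changes named for Ctrl_solvent against Ctrl are also given with replicate 1 as the only Ctrl library, which is then assumed to vary like the other groups. That gave 0.35 for Htr2a, -0.10 for Htr3a, -0.097 for Htr3b, -0.039 for Htr7 and 0.94 for Gfap, with unadjusted p of 0.177 or more in edgeR.

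The 5-HT3 subunits dominated the serotonin receptors of the ganglion. The table lists 14 serotonin receptor genes, of which 11 had enough reads to be tested. Htr3a averaged 52.2 ± 5.35 FPKM (SD, n = 18) and Htr3b 34.8 ± 6.93 FPKM (SD, n = 18). Together they made up 87.7% of the summed receptor FPKM, between 86.2% and 89.4% in single libraries. Htr3a stood above 92.4% and Htr3b above 89.1% of the tested genes in FPKM.

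The G protein-coupled receptors lay far lower. Htr1d averaged 5.53 ± 0.986 FPKM (SD, n = 18), followed by its close relative Htr1b with 2.23 ± 0.380 FPKM (SD, n = 18). Htr2a had 1.049 ± 0.176 FPKM (SD, n = 18) and Htr7 had 1.00 ± 0.186 FPKM (SD, n = 18). The ranges of Htr2a and Htr7 over the 18 libraries overlapped. Htr5b (0.822 FPKM), Htr4 (0.689 FPKM), Htr2c (0.391 FPKM) and Htr1a (0.219 FPKM) came next. Htr5a, Htr1f, Htr2b and Htr6 had means of at most 0.0872 FPKM and 0 in at least 1 library each. In whole tissue, fewer neurons that carry a receptor and less RNA per neuron cannot be told apart.

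**Figure D1:**
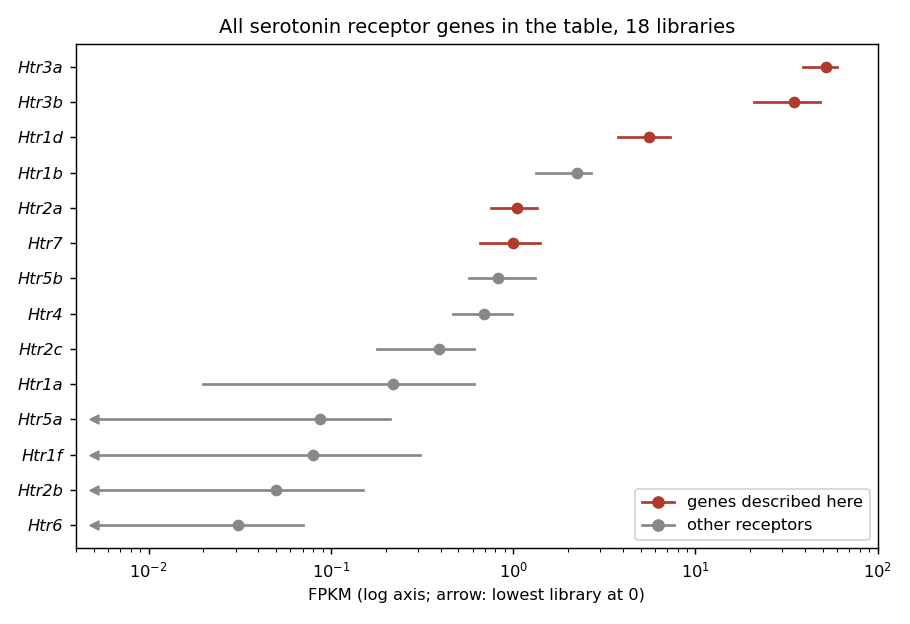
Mean FPKM (points, logarithmic axis) and the range over 18 libraries (lines) of the 14 serotonin receptor genes, with the 5 genes described here in red. Htr3a and Htr3b stand at 52.2 and 34.8 FPKM, and the next receptor, Htr1d, at 5.53 FPKM.

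None of the 5 genes passed the test in any of the 10 comparisons (edgeR quasi-likelihood test on counts, Benjamini-Hochberg adjustment over all 17043 genes, threshold 0.05). In each comparison 0 of the 17043 genes passed, a background of 0%. Genes with an unadjusted p under 0.05 numbered from 238 (NPP_herb against Sham_herb) to 2218 (Ctrl_solvent against Ctrl). The smallest adjusted p of the receptors in edgeR was 0.267, for Htr1d in Ctrl_solvent against Ctrl. DESeq2 called no receptor either, while calling 466 of the genes in that comparison. Levels within a gene are given below in CPM, read counts divided by library size, with TMM normalization between libraries.

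**Figure D2:**
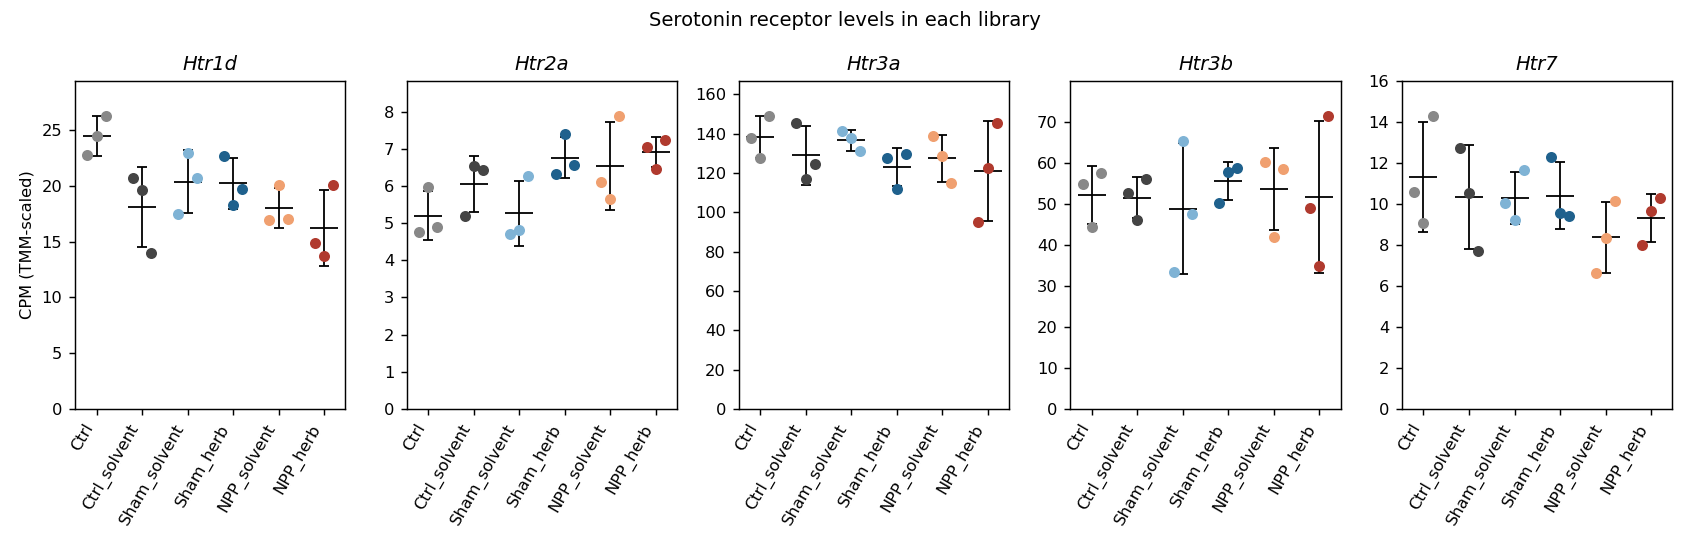
CPM of Htr1d, Htr2a, Htr3a, Htr3b and Htr7 in each of the 18 libraries (points), with the mean and SD of the 3 libraries in each group (lines). Ctrl is the highest group for Htr1d at 24.5 ± 1.76 CPM, and single libraries of Sham_solvent and NPP_herb lie at both ends for Htr3b.

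Htr3a, the subunit that forms channels alone, varied least of the 5 receptors. In Ctrl it stood at 138, 128 and 149 CPM, and in Ctrl_solvent at 146, 117 and 125 CPM. Sham_solvent libraries had 141, 137 and 131 CPM, and Sham_herb libraries 128, 112 and 129.6 CPM. Under NPP_solvent the values were 139, 129 and 115 CPM, and under NPP_herb 95, 123 and 145 CPM. NPP_herb held the lowest library of all and 1 of the highest, so its spread covered nearly that of the whole set. The coefficient of variation over 18 libraries was 10.6%, against 1.72% from counting alone, and 20.1% of tested genes varied less.

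Group means of Htr3a ran from 121 ± 25.2 CPM (SD, n = 3) in NPP_herb to 138 ± 10.7 CPM (SD, n = 3) in Ctrl, a ratio of 1.14, and each group overlapped the next in the order of means. In Sham_herb all libraries lay below all libraries of Sham_solvent, as for 6.06% of tested genes, with a log2 fold change of -0.15 ± 0.13 (SE) and an adjusted p of 0.642 in edgeR. For NPP_solvent against Sham_solvent the log2 fold change was -0.10, with a 95% interval of -0.37 to 0.17, and without NPP_solvent replicate 3 it was -0.031. With the treatments averaged, NPP against Sham gave -0.062, with an interval of -0.26 to 0.13.

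Htr3b, the partner subunit, spread widely between libraries of the same group. Ctrl libraries had 54.9, 44.2 and 57.4 CPM and Ctrl_solvent libraries 52.5, 46.0 and 56.1 CPM. In Sham_solvent the values were 33.5, 65.3 and 47.5 CPM, and in Sham_herb 50.2, 57.7 and 58.7 CPM. NPP_solvent gave 60.2, 42.0 and 58.6 CPM, and NPP_herb 48.9, 34.8 and 71.4 CPM. The lowest library was in Sham_solvent and the highest in NPP_herb, 2.13 times apart, while group means differed only 1.14-fold at most and every group overlapped its neighbour in the order of means. The within-group coefficient of variation was 22%, against 2.77% from counting.

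This spread left wide intervals for Htr3b. NPP_solvent against Sham_solvent gave a log2 fold change of 0.13, with a 95% interval of -0.38 to 0.64 and an edgeR adjusted p of 0.894. NPP_herb against NPP_solvent gave -0.049, with an interval of -0.56 to 0.46. The joint test of any difference among the 6 groups had an unadjusted p of 0.983 in edgeR.

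The level of Htr3b relative to Htr3a is a within-library measure that does not depend on library size. The genes are neighbours on chromosome 8, and no gene is annotated between them on GRCr8. The ratio of Htr3b to Htr3a in FPKM ran from 0.389 in Sham_solvent replicate 1 to 0.849 in Sham_herb replicate 2. Its group means were 0.620 ± 0.0442 in Ctrl, 0.660 ± 0.0742 in Ctrl_solvent, 0.589 ± 0.196 in Sham_solvent, 0.746 ± 0.102 in Sham_herb, 0.696 ± 0.151 in NPP_solvent and 0.706 ± 0.209 in NPP_herb (SD, n = 3 each). Over both treatments the ratio was 0.701 ± 0.163 in NPP and 0.667 ± 0.164 in Sham (SD, n = 6 each). The log2 difference was 0.078, and a two-sided exact permutation test gave p = 0.736. The groups were not separated by this ratio.

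The ratio went with a property of whole libraries. For each library, the slope of log2 CPM, centred on the mean of each gene over the libraries, on log2 gene length was taken over 11895 genes. A negative slope means that long genes were lower in that library than in the others. Slopes ran from -0.17 in Sham_solvent replicate 1 to 0.13 in NPP_solvent replicate 3, and all 3 Sham_herb libraries lay between 0.061 and 0.084. Across the 18 libraries the slope and the log2 ratio correlated at r = 0.856 (permutation p = 2e-05, adjusted 0.00036 over 18 relations). Spearman's rho was 0.843 (permutation p = 5e-05, adjusted 0.0009). Without the 2 libraries with the most extreme slopes r was 0.770, and on deviations from group means it was 0.857. No library date or batch is given in the labels, so no within-batch value could be formed.

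Htr3b itself followed the slope, with r = 0.752 (permutation p = 0.00026, adjusted 0.00234) and rho = 0.754 (permutation p = 5e-04, adjusted 0.0045). Without the 2 most extreme libraries r was 0.661. Htr3a did not follow it clearly, with r = -0.282 (permutation p = 0.258, adjusted 0.516) and rho = -0.265 (permutation p = 0.286, adjusted 0.538). The transcript lengths that the counts and FPKM imply are 1.51 kb for Htr3b and 2.47 kb for Htr3a, so the shorter of the pair was the one that was higher where long genes were higher. With the slope as a covariate, an alternative added after seeing the data, the log2 fold change of Htr3b for NPP_solvent against Sham_solvent went from 0.13 to -0.13 and its SE from 0.24 to 0.15. For Sham_herb against Sham_solvent it went from 0.18 to -0.20. Neither passed the test in edgeR, with or without the covariate (unadjusted p with it 0.408 and 0.225). What sets the slope was not tested.

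**Figure D3:**
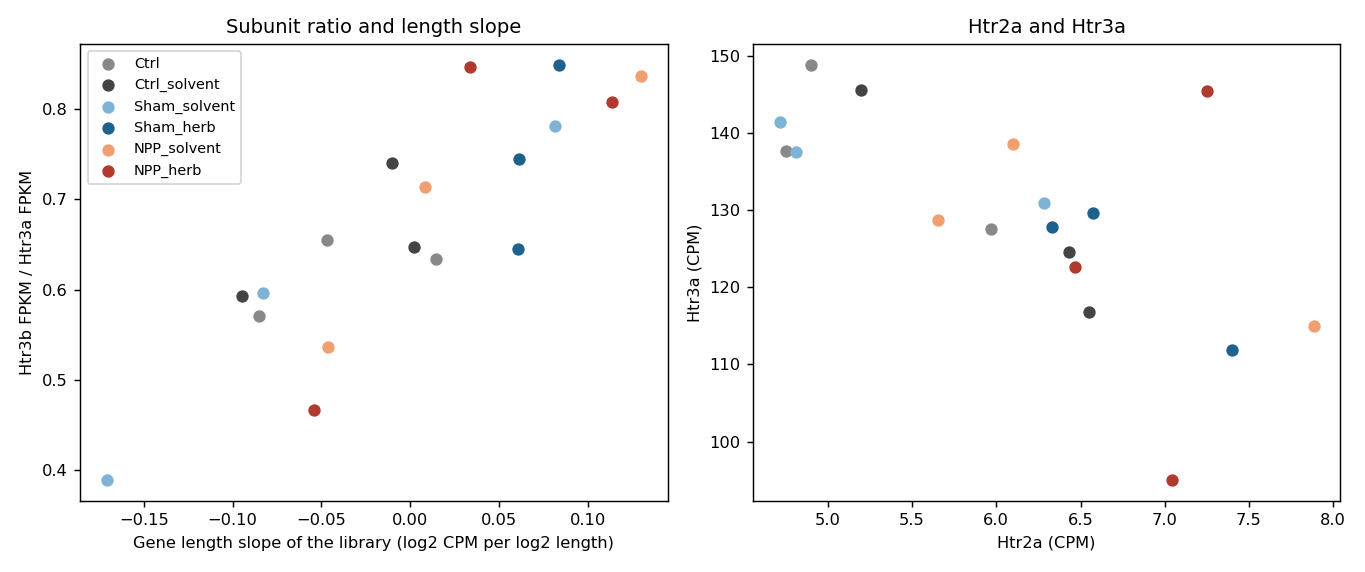
Left, the ratio of Htr3b to Htr3a in FPKM against the gene length slope of each library; right, CPM of Htr3a against CPM of Htr2a; points are the 18 libraries, coloured by group. The ratio is lowest, 0.389, where the slope is lowest, -0.17, and Htr3a tends to be low where Htr2a is high.

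Htr1d, the Gi-coupled receptor, was highest in untreated controls. The Ctrl libraries had 22.7, 24.4 and 26.3 CPM, and the Ctrl_solvent libraries 20.7, 19.6 and 14.0 CPM. In Sham_solvent the values were 17.4, 23.0 and 20.7 CPM, and in Sham_herb 22.7, 18.3 and 19.8 CPM. NPP_solvent libraries stood at 16.9, 20.0 and 17.0 CPM, and NPP_herb libraries at 14.9, 13.7 and 20.1 CPM. Ctrl did not overlap Ctrl_solvent, and the lowest group mean, 16.2 ± 3.40 CPM (SD, n = 3) in NPP_herb, was reached with 1 library as high as those of Sham. From the highest to the lowest group mean the ratio was 1.51, though each group overlapped the next in order.

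For Ctrl_solvent against Ctrl the log2 fold change of Htr1d was -0.43 ± 0.17 (SE), with a 95% interval of -0.78 to -0.085. In edgeR the unadjusted p was 0.0175 and the adjusted p 0.267, so the difference did not pass. Among all tested genes 4.68% were lower with an unadjusted p under 0.05 in this comparison, and 8.15% had non-overlapping groups in this direction. Without Ctrl_solvent replicate 3 the value was -0.28 (edgeR unadjusted p 0.108). With Ctrl replicate 1, the Ctrl library with Eif2s3y reads, as the only control it was -0.33 (edgeR unadjusted p 0.186, the lone library being assumed to vary like the other groups). The joint test over the 6 groups gave an unadjusted p of 0.0357 in edgeR (adjusted 0.473), as 10.2% of genes had under 0.05, and 0.299 without the 2 Ctrl libraries that lack Eif2s3y reads.

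Markers of other cells and of neuron classes had differing values between the same groups, and 0 of them passed the test. The 8 peptidergic nociceptor markers included 3 with an edgeR unadjusted p under 0.05 in Ctrl_solvent against Ctrl. All 3 were lower, as were 4.68% of all tested genes at that level. They were Calca (log2 fold change -0.46) and Calcb (-0.45), which encode the CGRP peptides, and the sodium channel gene Scn10a (-0.51). With Ctrl replicate 1 as the only control these were 0.023, -0.18 and -0.23, and 0 of the 8 had an unadjusted p under 0.05 in edgeR. The summed level of the list was 873 to 1310 FPKM in Ctrl and 818 to 1003 FPKM in Ctrl_solvent. With all Ctrl libraries Adcyap1 was above 0 (0.40) and the other markers of the list below 0. In NPP_solvent against Sham_solvent, Trpv1 (0.51) and Scn10a (0.43) of this list were higher (edgeR unadjusted p 0.00533 and 0.0380, adjusted 0.755 for both). There 2.66% of all tested genes were higher with an edgeR unadjusted p under 0.05, and of this list only Calcb was below 0. The mean log2 CPM of 12 neuronal markers was 9.36 ± 0.0765 in Ctrl and 9.27 ± 0.116 in Ctrl_solvent (SD, n = 3 each), and with this mean as a covariate Htr1d gave -0.32 (edgeR unadjusted p 0.0701). Of 8 macrophage markers, 7 were higher at that level in Ctrl_solvent, where their summed level was 64.4 to 296 FPKM against 32.0 to 65.7 FPKM in Ctrl. Cd68, a lysosomal macrophage marker, had 20.4 ± 11.7 CPM in Ctrl_solvent and 3.92 ± 1.20 CPM in Ctrl (SD, n = 3 each), and none of the 8 was at 0. Among all genes 8.33% were higher at that level. With Ctrl replicate 1 as the only control 5 of the 8 were higher at that level, and the log2 fold change of Cd68 was 2.56 against 2.38 with all libraries. The part of the macrophage markers in the level of Htr1d was not tested.

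Htr1d also had lower values in NPP than in Sham. Over both treatments the 6 NPP libraries ran from 13.7 through a median of 17.0 to 20.1 CPM, and the 6 Sham libraries from 17.4 through 20.2 to 23.0 CPM. The ranges overlapped. The averaged log2 fold change was -0.25 ± 0.12 (SE), with a 95% interval of -0.49 to -0.0021. In edgeR the unadjusted p was 0.0483 and the adjusted p 0.998, and 1.1% of tested genes were lower at this unadjusted level. Leaving out single libraries gave -0.34 to -0.20. Within treatments the log2 fold change was -0.18 under solvent (edgeR unadjusted p 0.284) and -0.31 under herb (edgeR unadjusted p 0.0749). Under solvent it ran from -0.29 without Sham_solvent replicate 1 to -0.085 without Sham_solvent replicate 2. Under herb it ran from -0.50 without NPP_herb replicate 3 (edgeR unadjusted p 0.00932) to -0.20 without NPP_herb replicate 2. The difference between these, the herb effect in NPP minus that in Sham, was -0.13 ± 0.23 (SE; edgeR unadjusted p 0.579).

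Htr2a, the Gq-coupled receptor, was measured with 96 to 290 reads per library. Ctrl libraries had 4.75, 5.97 and 4.90 CPM and Ctrl_solvent libraries 5.19, 6.55 and 6.43 CPM. In Sham_solvent they had 4.71, 4.81 and 6.28 CPM, and in Sham_herb 6.33, 7.40 and 6.57 CPM. NPP_solvent stood at 6.10, 5.65 and 7.88 CPM, and NPP_herb at 7.04, 6.47 and 7.25 CPM. Both herb groups lay in the upper part of the range, and all 3 Sham_herb libraries were above all 3 Sham_solvent libraries. Counting alone gave a coefficient of variation of 7.91% of the 15.7% seen over libraries.

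For Sham_herb against Sham_solvent the log2 fold change of Htr2a was 0.36 ± 0.18 (SE), with a 95% interval of -0.0092 to 0.73. In edgeR the unadjusted p was 0.0554 and the adjusted p 0.491, and 8.52% of tested genes were higher without overlap in this comparison. For NPP_solvent against Sham_solvent it was 0.32 ± 0.18 (SE; edgeR unadjusted p 0.0903), from 0.16 without NPP_solvent replicate 3 to 0.45 without Sham_solvent replicate 3 (edgeR unadjusted p 0.0308). These comparisons share the Sham_solvent libraries, 2 of which held the lowest Htr2a values outside Ctrl. In NPP, herb against solvent gave 0.080 ± 0.18 (SE; edgeR unadjusted p 0.656), and the difference of the herb effects was -0.28 ± 0.25 (SE; edgeR unadjusted p 0.273). Htr2a correlated with the gene length slope at r = 0.582 (permutation p = 0.0118, adjusted 0.0709) and rho = 0.631 (permutation p = 0.00653, adjusted 0.0392). Without the 2 libraries of most extreme slope r was 0.365, so the relation rests largely on them. With the slope as a covariate, which was added after seeing the data, the Sham_herb difference was 0.25 (edgeR unadjusted p 0.222).

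Htr7, the Gs-coupled receptor, was measured with 149 to 469 reads per library. It stood at 10.6, 9.07 and 14.3 CPM in Ctrl and at 12.8, 10.6 and 7.70 CPM in Ctrl_solvent. In Sham_solvent it had 10.04, 9.21 and 11.7 CPM, and in Sham_herb 12.3, 9.56 and 9.42 CPM. In NPP_solvent it had 6.66, 8.32 and 10.1 CPM, and in NPP_herb 8.01, 9.64 and 10.3 CPM. The lowest library was in NPP_solvent and the highest in Ctrl, and all groups overlapped their neighbours in the order of means.

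NPP_solvent had the lowest mean of Htr7, 8.37 ± 1.74 CPM (SD, n = 3), and Ctrl the highest, 11.3 ± 2.69 CPM (SD, n = 3). NPP_solvent against Sham_solvent gave a log2 fold change of -0.30 ± 0.21 (SE; edgeR unadjusted p 0.176), with a 95% interval of -0.74 to 0.15. It was -0.46 without NPP_solvent replicate 3 and -0.16 without NPP_solvent replicate 1. Averaged over treatments, NPP against Sham gave -0.23 ± 0.15 (SE; edgeR unadjusted p 0.144). Herb against solvent within NPP gave 0.15 ± 0.21 (SE; edgeR unadjusted p 0.477). None of these passed, and each interval held 0.

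**Figure D4:**
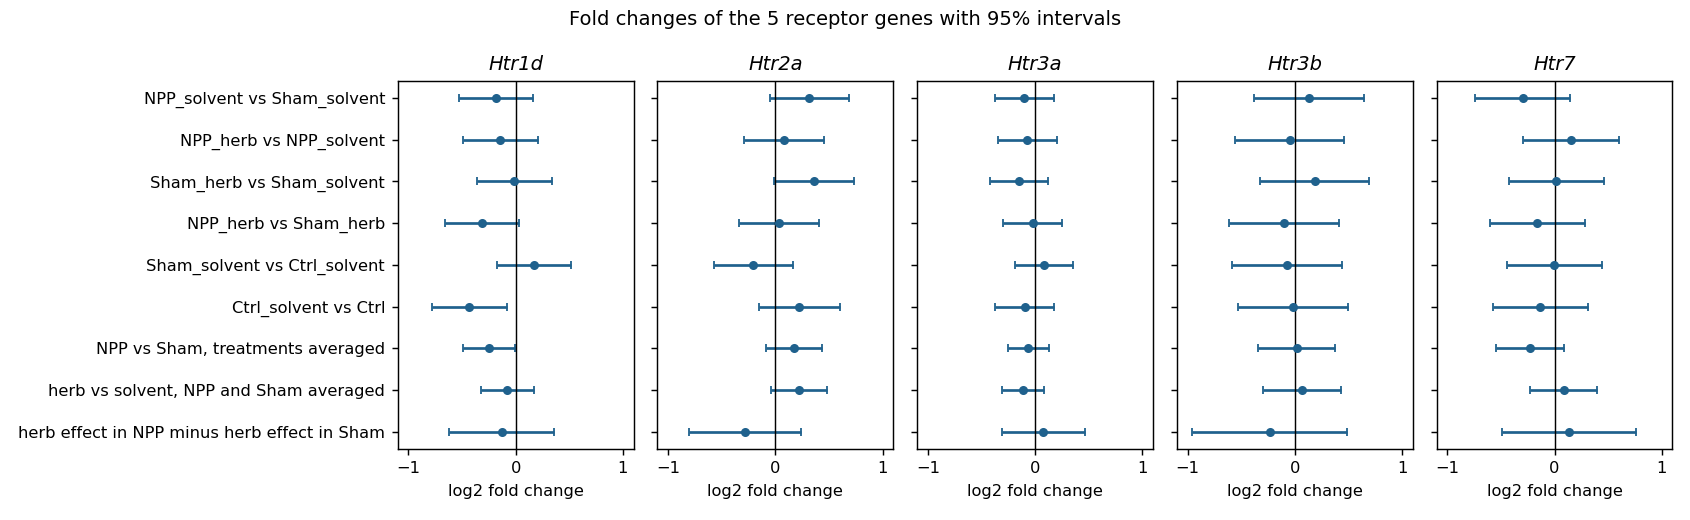
Log2 fold changes of the 5 receptor genes (points) with 95% intervals (bars) in 9 comparisons from the edgeR fit. Only the intervals of Htr1d for Ctrl_solvent against Ctrl (-0.78 to -0.085) and for NPP against Sham averaged (-0.49 to -0.0021) lie off 0, before adjustment over genes.

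Across the 6 pairs of groups and 5 genes, 3 of 30 comparisons (10%) had libraries that did not overlap, near the mean of 9.85% of tested genes over these pairs in either direction. These were the Htr1d difference between Ctrl_solvent and Ctrl and the differences of Htr2a (higher) and Htr3a (lower) between Sham_herb and Sham_solvent.

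The receptors varied together in part. Of the 10 pairs, Htr2a and Htr3a had the strongest relation, and it was inverse, with r = -0.650 (permutation p = 0.00284, adjusted 0.0284 over 10 pairs) and rho = -0.659 (permutation p = 0.00374, adjusted 0.0374). It was -0.625 without the 2 libraries farthest from the median of Htr2a and -0.510 on deviations from group means. Htr1d and Htr7 went up and down together with r = 0.584 (permutation p = 0.0108, adjusted 0.0539) and rho = 0.515 (permutation p = 0.0312, adjusted 0.0832), which missed the threshold after adjustment. Without the 2 libraries farthest on Htr1d it was 0.585, and on deviations from group means 0.533. The subunit pair Htr3a and Htr3b, by contrast, gave r = 0.164 (permutation p = 0.512, adjusted 0.569) and rho = 0.230 (permutation p = 0.358, adjusted 0.511). These correlations share the libraries and their scaling.

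Genes whose log2 CPM followed each receptor most closely over the 18 libraries were sought among 11001 genes with a mean of at least 5 CPM. They were picked as the highest of many correlations and are given as a description. Nearest to Htr1d were Grb2 (r = 0.912), which encodes a growth factor receptor adaptor, Epn3 (0.903), an epsin of endocytosis, and Apbb1 (0.881), which binds the amyloid precursor protein. Nearest to Htr2a were Nr3c1 (0.847), the glucocorticoid receptor gene, the scaffold gene Cask (0.830) and the ceramide synthase gene Cers4 (0.829). Htr3a had weaker neighbours, B4galnt4 (0.800), Dcaf12 (0.774) and Stk25 (0.746). Nearest to Htr3b were Cds2 (0.902), which encodes an enzyme of phospholipid synthesis, Bcr (0.897) and Cyb5b (0.897). These neighbours of Htr3b correlated with the length slope themselves, at r = 0.845, 0.884 and 0.847. For Htr7 they were Baiap2l1 (0.765), Cpeb1 (0.763), which encodes an mRNA-binding protein, and Nrn1 (0.757), the neuritin gene.

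The supply and clearance of serotonin were measured through 13 genes, 11 of which could be tested. None passed the test in any comparison in edgeR. Tph2, the neuronal form of the rate-limiting enzyme of serotonin synthesis, had 4.56 ± 1.13 FPKM and Tph1 1.19 ± 0.329 FPKM (SD, n = 18 each). Ddc, the next enzyme of the pathway, had 0.085 FPKM and Slc6a4, the serotonin transporter, 0.104 FPKM. The breakdown genes were higher, with 21.7 FPKM for Maob, 15.9 FPKM for Maoa and 44.2 FPKM for Aldh2.

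Within this list Slc29a4, a low-affinity monoamine transporter of the plasma membrane, had the smallest unadjusted p. Sham_solvent libraries had 12.5, 9.41 and 12.5 CPM, and NPP_solvent libraries 14.9, 17.0 and 18.5 CPM. Sham_herb had 13.01, 11.3 and 12.8 CPM, and NPP_herb 13.7, 17.1 and 14.7 CPM. All 6 NPP libraries were above all 6 Sham libraries, as were those of 0.0587% of tested genes. The log2 fold change over both treatments was 0.42 ± 0.10 (SE), with an unadjusted p of 0.000792 and an adjusted p of 0.998 in edgeR. It did not pass, and the 6 libraries of Ctrl and Ctrl_solvent, between 11.1 and 15.3 CPM, overlapped both. In Ctrl_solvent against Ctrl, 8.33% of tested genes were higher and 4.68% lower with an edgeR unadjusted p under 0.05. At that level Maoa (0.60) and Maob (0.38) had higher and Slc6a4 (-1.58) lower log2 fold changes. With Ctrl replicate 1 as the only control they were 0.47, -0.057 and -2.01, and only Slc6a4 of the 3 was still at that level (edgeR unadjusted p 0.0426). Slc6a4 had 3 to 4 reads in each Ctrl_solvent library and at most 30 in any library, and its log2 fold change was 1.78 in Sham_solvent against Ctrl_solvent (edgeR unadjusted p 0.0246, adjusted 0.715). In NPP_solvent against Sham_solvent Aldh2 (-0.24) was lower with an edgeR unadjusted p under 0.05, as were 3.02% of tested genes.

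The remaining 9 serotonin receptor genes held 6 that could be tested, and none passed in edgeR. Htr1b, the relative of Htr1d, had 18.3 ± 3.85 CPM in Ctrl and 22.8 ± 4.28 CPM in Ctrl_solvent, with means of 24.8 to 25.6 CPM in the other groups (SD, n = 3). Its order of groups was unlike that of Htr1d, which was highest in Ctrl, but the difference between the genes was not tested. The log2 fold change of Htr1b in Ctrl_solvent against Ctrl was 0.31, and 0.038 with Ctrl replicate 1 as the only control. Htr1a had a log2 fold change of 1.36 ± 0.64 (SE; edgeR unadjusted p 0.0493) for herb against solvent, from at most 30 reads in a library.

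Of 29 genes for G proteins, adenylyl cyclases, phospholipases, kinases and channels downstream of the receptors, all could be tested and none passed in edgeR. In NPP_solvent against Sham_solvent 23 of 29 had log2 fold changes above 0, with a median of 0.18 against 0.0075 over all genes. The 4 with an unadjusted p under 0.05 were the irritant channel Trpa1 (0.99), the capsaicin channel Trpv1 (0.51), the cyclase Adcy2 (0.40) and the G protein Gnao1 (0.29), all higher, at a background of 2.66%. In Sham_herb against Sham_solvent 25 of 29 were above 0, with a median of 0.20 against 0.0053 over all genes. Both comparisons share the Sham_solvent libraries, and these include the library with the most negative length slope. In NPP_herb against Sham_herb 15 of 29 were above 0, with a median of 0.0044.

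The 8 genes for assembly and anchoring of the receptors, among them the 5-HT3 chaperone Ric3, were all tested and none passed in edgeR. Ric3 had 4.28 FPKM over the 18 libraries. Arrb1 encodes beta-arrestin, which binds activated G protein-coupled receptors. Its log2 fold changes were 0.23 in NPP_solvent and 0.28 in Sham_herb, both against Sham_solvent (edgeR unadjusted p 0.0372 and 0.0129, adjusted 0.755 and 0.491). In these comparisons 2.66% and 4.4% of tested genes were higher with an edgeR unadjusted p under 0.05. S100a10 (-0.28 and -0.41) and Arrb2 (-0.046 and -0.22) were below 0 in both. Arrb1 had -0.20 in Sham_solvent against Ctrl_solvent (edgeR unadjusted p 0.0612).

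Markers of platelets and mast cells, which release serotonin, were low. The platelet markers Ppbp and Gp9 had at most 3 reads in any library. The 10 mast cell and platelet markers summed to 10.9 to 25.7 FPKM, and 7 could be tested. Pf4 was listed as a platelet marker, but which cells its reads come from was not tested, with Ppbp and Gp9 nearly without reads. Its log2 fold change was -1.38 in NPP_solvent against Sham_solvent (edgeR unadjusted p 0.00700, adjusted 0.755). At an unadjusted p under 0.05, 3.02% of all tested genes were lower there. Itga2b and Ms4a2 were also below 0 in that comparison, and Hdc, Cpa3, Kit and Tpsb2 above 0. The mast cell proteases Cpa3 (-1.81) and Tpsb2 (-1.87) had lower log2 fold changes in herb against solvent with an unadjusted p under 0.05 in edgeR (adjusted 0.782 for both), at a background of 2.88%. Of the 7, 4 were above 0, with a median of 0.028. The group means of Cpa3 and Tpsb2 were at most 1.64 CPM, in NPP_solvent for Cpa3.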

How the data were processed

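RNA of 18 rat dorsal root ganglion libraries was read in pairs after capture of messenger RNA, per the labels' protocols. The deposited counts are whole reads per gene, and the deposited FPKM values were scaled by the authors to gene length and library size. HISAT2, DESeq2 and mRatBN7.2 are named, without versions, per the submitters' processing notes. Counter, strand setting and annotation release: not given in the sources used here. Where genes overlap or run antisense to each other, their reads may be mixed.

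Genes with few reads were removed with filterByExpr of edgeR 4.0.16 (R 4.3.3), which left 17043 of 25678, and the removed genes held at most 0.0495% of the reads of a library. TMM factors were 0.946 to 1.04. The quasi-likelihood test used all 18 libraries in 1 model with 1 coefficient per group (12 residual degrees of freedom), adjusted over all tested genes. Intervals are 95% intervals of that fit. Within groups, libraries correlated at a median r of 0.977, and no pair agreed within sampling noise. Correlations used 100000 permutations on log2 CPM. Length slopes used genes with a mean of at least 1 FPKM.

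The receptors and the 14 gene lists were chosen with earlier results of these data known. Genes named from a list are at most 3 per comparison with the smallest unadjusted p under 0.05 (4 for the downstream genes, where the fourth was added after its value was seen), otherwise those highest in FPKM; of the genes most like a receptor the 3 with the highest r. Other genes named as tissue markers were chosen for that role after seeing their levels. Alternatives were DESeq2 1.42.0 and its size factors, limma 3.58.1 (voom, and log2 of FPKM plus 0.1 or 1), no filter on low counts, only the groups compared, the replicate number as a block, a neuronal marker covariate and leaving out each library. The length slope covariate and leaving out the Ctrl libraries without Eif2s3y reads were added after seeing the data.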

Additional observations from a re-analysis of the deposited data

How the results depend on the processing

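Over the 10 comparisons, the 5 receptors were called in none of 955 alternative values, with a smallest adjusted p of 0.154 (edgeR, Htr1d in Ctrl_solvent against Ctrl with the length slope as a covariate); the cause of the changes below was not tested. Counts of genes called over all genes, 0 in edgeR, were under DESeq2 1 for NPP_herb against NPP_solvent, 2 for NPP_herb against Sham_herb, 35 for Sham_solvent against Ctrl_solvent, 466 for Ctrl_solvent against Ctrl, 2 for herb against solvent, 3 for the difference of herb effects and 470 for any difference. For Ctrl_solvent against Ctrl it was 1 each with no low-count filter, limma on log2(FPKM + 0.1) and the length slope. Leaving out single libraries gave 0 to 2 (NPP_herb against Sham_herb), 0 to 252 (Sham_solvent against Ctrl_solvent), 0 to 734 (Ctrl_solvent against Ctrl), 0 to 1 (difference of herb effects) and 0 to 319 (any difference); 252, 734 and 319 are without Ctrl_solvent replicate 2. In the last 2, 23 and 19 genes were called without Ctrl replicate 1, 2 (Ctrl_solvent against Ctrl) without Ctrl replicate 2 and 3 (any difference) without Sham_herb replicate 2.

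Log2 fold changes that reversed were all small and uncalled. With the length slope, Htr3b was -0.13 (NPP_solvent against Sham_solvent), -0.20 (Sham_herb against Sham_solvent), -0.072 (NPP against Sham averaged), -0.15 (herb against solvent averaged) and 0.11 (difference of herb effects), and Htr7 was -0.028 (Sham_herb against Sham_solvent) and 0.0046 (Sham_solvent against Ctrl_solvent). With the neuronal covariate Htr7 was -0.043 (Sham_herb against Sham_solvent) and 0.040 (Ctrl_solvent against Ctrl). On log2(FPKM + 0.1) and log2(FPKM + 1), Htr1d was 0.022 and 0.018 (Sham_herb against Sham_solvent) and Htr3b 0.025 and 0.024 (Ctrl_solvent against Ctrl). For Htr7 in Sham_solvent against Ctrl_solvent, DESeq2 size factors gave 0.0069, DESeq2 0.0070, voom 0.0093, no filter 0.012 and only the compared groups 0.0092. Same-numbered libraries deviated together with a median r of 0.0082 over 45 pairs and 4 of 18 were closest to their own number, so the numbers do not pair libraries; with the replicate block Htr3b was -0.0060 (NPP against Sham averaged).

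Leaving out single libraries moved these across 0. For Htr3b the range was -0.080 to 0.40 (NPP_solvent against Sham_solvent), -0.36 to 0.17 (NPP_herb against NPP_solvent), -0.031 to 0.45 (Sham_herb against Sham_solvent), -0.41 to 0.13 (NPP_herb against Sham_herb), -0.34 to 0.15 (Sham_solvent against Ctrl_solvent), -0.13 to 0.055 (Ctrl_solvent against Ctrl), -0.14 to 0.15 (NPP against Sham), -0.087 to 0.20 (herb against solvent) and -0.54 to 0.0032 (difference of herb effects). For Htr3a it was -0.23 to 0.071 (NPP_herb against NPP_solvent), -0.18 to 0.12 (NPP_herb against Sham_herb), -0.14 to 0.011 (NPP against Sham) and -0.080 to 0.22 (difference of herb effects). For Htr7 it was -0.12 to 0.11 (Sham_herb against Sham_solvent), -0.16 to 0.17 (Sham_solvent against Ctrl_solvent), -0.31 to 0.067 (Ctrl_solvent against Ctrl) and -0.0050 to 0.30 (difference of herb effects). For Htr2a it was -0.017 to 0.24 (NPP_herb against NPP_solvent) and -0.014 to 0.11 (NPP_herb against Sham_herb), and for Htr1d -0.12 to 0.086 (Sham_herb against Sham_solvent). The log2 difference of the Htr3b to Htr3a ratio between NPP and Sham ran from -0.069 (without Sham_solvent replicate 1) to 0.19.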

Other observations

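The neurons of itch, which carry serotonin receptors among others, were followed through 8 markers, of which 7 could be tested and none passed in edgeR. Nppb, the itch peptide gene, stood at 36.1 ± 30.8 CPM in Ctrl and 0.926 ± 0.231 CPM in Ctrl_solvent (SD, n = 3 each; log2 fold change -5.30, edgeR unadjusted p 0.00247, adjusted 0.146). In the same comparison Nts, the neurotensin gene, had 1.28 and Il31ra, an interleukin 31 receptor gene, -0.88 (edgeR unadjusted p 0.0147 and 0.0195, adjusted 0.253 and 0.278). The fourth with an unadjusted p under 0.05 was Osmr, with -1.51 (edgeR unadjusted p 0.0438, adjusted 0.370). Among all tested genes 8.33% were higher and 4.68% lower at that level in this comparison. Of the 7, 4 were above 0 and 3 below. With Ctrl replicate 1 as the only control, 0 of the 7 were at that level in edgeR: Nppb had -0.41, Nts 1.08, Il31ra -0.16 and Osmr 0.60, so the Nppb difference rests on Ctrl replicates 2 and 3. Cysltr2, a leukotriene receptor gene of these neurons, had a log2 fold change of 1.03 in Sham_herb against Sham_solvent (edgeR unadjusted p 0.00386, adjusted 0.491). Sham_solvent was also the lower group against Ctrl_solvent, with -0.94 for Cysltr2 (edgeR unadjusted p 0.00717, adjusted 0.584). Herb against solvent within NPP gave 0.24 for this gene (edgeR unadjusted p 0.432).

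Blood vessel markers, a further site of serotonin receptors, gave no call. Among 8 endothelial markers, Kdr and Flt1, receptors for vascular growth factor, had log2 fold changes of 0.61 and 0.42 in Sham_herb against Sham_solvent (edgeR unadjusted p 0.00411 and 0.0166, adjusted 0.491 for both). Of the 8, 4 were above 0 and 4 below, with a median of -0.034 against 0.0053 over all genes. In that comparison 4.4% of all tested genes were higher with an edgeR unadjusted p under 0.05. Among 8 mural cell markers, Tagln had -0.97 and Rgs5 1.14 in NPP_solvent against Sham_solvent (edgeR unadjusted p 0.0147 and 0.0176, adjusted 0.755 for both). Of 8 markers of large-diameter neurons, Pvalb had -0.70 in the same comparison (edgeR unadjusted p 0.0239, adjusted 0.755). At an unadjusted p under 0.05, 3.02% of all tested genes were lower there. Ntrk2 and Ntrk3 were above 0, at 0.17 and 0.098, and the other markers of this list below. Pvalb also had -0.67 in Sham_herb against Sham_solvent (edgeR unadjusted p 0.0293, adjusted 0.491), which shares the Sham_solvent libraries. NPP_herb against Sham_herb gave -0.068 for Pvalb. Of 10 markers of satellite glia and Schwann cells, Glul, the glutamine synthetase gene, had 0.28 in Ctrl_solvent against Ctrl (edgeR unadjusted p 0.00927, adjusted 0.214), and 0.17 with Ctrl replicate 1 as the only control.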
